A study of Mus musculus with 8 samples.

Results

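Reg family genes were followed in mouse pancreas as 6 members, Reg1, Reg2, Reg3a, Reg3b, Reg3d and Reg3g, out of 18820 genes measured. A member was a feature of the deposited value table whose single gene symbol in the platform annotation was 1 of these names. Each of the 6 members had exactly 1 such feature, so no choice between features was needed. The study comprised 8 whole-transcript arrays, 4 from wild type and 4 from Sel1L knockout pancreas. Sel1L is the adaptor of the Hrd1 ubiquitin ligase, which removes misfolded proteins from the endoplasmic reticulum. Both groups were homozygous for a Sel1L allele with a floxed exon 6 (Sel1L flox/flox), derived from C57BL/6N embryonic stem cells and crossed to the C57BL/6J background. The knockout group also carried ERCre, a fusion of Cre with the estrogen receptor under an actin promoter, and the wild type group consisted of littermates without it. Mice of both groups were 8 to 20 weeks old and received tamoxifen intraperitoneally at 5 mg/ml and 5 µl per g of body weight on each of 3 days. The interval between the last injection and tissue collection was not given in the sources used here. Because the controls had no Cre, deletion of Sel1L and active Cre cannot be told apart. The actin promoter drives ERCre in many tissues, so effects that start outside the pancreas cannot be told apart from local ones. The labels do not say whether each array held RNA of a separate animal, so the p-values cover the spread between these 8 samples, part or all of which may be technical.

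Reg genes encode small secreted proteins with a C-type lectin fold, and exocrine acinar cells of the pancreas release them into pancreatic juice. Reg1 and Reg2 are the pancreatic stone protein type, first studied in regenerating islets. The Reg3 proteins include pancreatitis-associated protein, the product of Reg3b, and Reg3g is known from gut epithelium as a lectin that kills Gram-positive bacteria. Reg3 genes are acute-phase genes of the pancreas, where cytokines that signal through gp130 or the IL22 receptor, and then through the transcription factor STAT3, are known to switch them on. Reg3d is a less studied relative, also expressed in pancreas.

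The RefSeq gene table of assembly GRCm38.p6 placed all 6 members as neighbours on chromosome 6. Their order was Reg3b, Reg3d, Reg3a, Reg2, Reg1 and Reg3g, with the pseudogenes Gm5576 and Gm6072 at the ends and the pseudogene Gm52853 between Reg1 and Reg3g. Reg3d and Reg3g lay on the minus strand and the other members on the plus strand. Start regions of all 6 members were in the RefSeq promoter table of the same assembly, each 300 bases long with 250 bases before and 50 bases after the annotated start. The 4 printed here are those of Reg3a, Reg3b and Reg3g, whose pairs had the highest Pearson r over the 8 arrays, and of Reg1, whose values followed the others least. Capitals mark a TATA box (TATAAA), an RBPJ core (TTCCCA), an E-box (CACCTG) and a STAT form (TTCNNNGAA), each on either strand.
Reg3a, chr6:78380459-78380758, plus strand: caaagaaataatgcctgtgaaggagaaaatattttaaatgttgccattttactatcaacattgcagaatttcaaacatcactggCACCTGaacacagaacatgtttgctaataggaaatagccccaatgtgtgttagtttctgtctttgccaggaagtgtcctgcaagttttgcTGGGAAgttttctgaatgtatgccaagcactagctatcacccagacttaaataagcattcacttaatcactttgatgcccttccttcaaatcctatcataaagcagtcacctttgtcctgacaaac
Reg3b, chr6:78370635-78370934, plus strand: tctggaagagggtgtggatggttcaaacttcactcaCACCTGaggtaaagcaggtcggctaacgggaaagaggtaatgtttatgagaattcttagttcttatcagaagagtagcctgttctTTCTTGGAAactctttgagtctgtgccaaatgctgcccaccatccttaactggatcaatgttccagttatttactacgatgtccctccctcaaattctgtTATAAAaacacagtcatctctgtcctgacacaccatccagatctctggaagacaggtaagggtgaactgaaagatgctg
Reg3g, chr6:78468825-78469124, minus strand: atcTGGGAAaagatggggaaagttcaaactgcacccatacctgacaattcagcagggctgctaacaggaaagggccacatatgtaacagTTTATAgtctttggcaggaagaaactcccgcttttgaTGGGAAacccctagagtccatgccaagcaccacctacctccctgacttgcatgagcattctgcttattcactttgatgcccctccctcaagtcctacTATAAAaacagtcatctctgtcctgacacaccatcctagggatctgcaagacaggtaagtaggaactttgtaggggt
Reg1, chr6:78425733-78426032, plus strand: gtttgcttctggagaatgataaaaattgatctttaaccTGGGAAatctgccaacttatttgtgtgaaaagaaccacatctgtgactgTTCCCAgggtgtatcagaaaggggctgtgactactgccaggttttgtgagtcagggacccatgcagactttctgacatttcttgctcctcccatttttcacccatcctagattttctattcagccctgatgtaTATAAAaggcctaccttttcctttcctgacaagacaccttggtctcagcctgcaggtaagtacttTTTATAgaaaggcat

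The Reg3b and Reg3g start regions held an identical run of 29 bases that began 20 bases before the start in both, shown because it was the longest run shared by any pair of members.
shared run of Reg3b and Reg3g: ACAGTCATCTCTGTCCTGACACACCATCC
Of the 32851 start regions in the table, 2 held this run, and they were those of Reg3b and Reg3g. The other 14 pairs of members shared runs of 7 to 14 bases, the longest between Reg3a and Reg3g.

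A TATA box written TATAAA occurred in 4 of the 6 start regions, on the gene's strand at -30 in Reg1, -30 in Reg2, -29 in Reg3b and -27 in Reg3g, against 13.6% of all start regions in the table. Reg1 and Reg3g held a further match on the opposite strand, at 35 and -161. The letters TTCNNNGAA, the form that STAT factors bind, occurred at -129 in Reg3b and at -238 in Reg3d and in no other member, against 8.3% of all. In Reg3d this match overlapped a match of TTCCCA, the core that RBPJ binds. TTCCCA occurred in 5 members, all but Reg3b, against 25.6% of all start regions. E-boxes written CANNTG occurred in all 6 members, but also in 72.3% of all start regions. The E-box form CACCTG, chosen after the sequences were seen, occurred in 4 members at -179 (Reg2), -166 (Reg3a), -214 (Reg3b) and both -224 and -187 (Reg3d), against 20.2% of all. The NR5A site AAGGTCA, the cyclic AMP response element TGACGTCA and the ATF4 composite TGATGNAAT were in none of the 6, and in 4.72%, 1.79% and 0.965% of all start regions. These matches describe letters in a window, and binding was not measured.

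**Figure D1:**
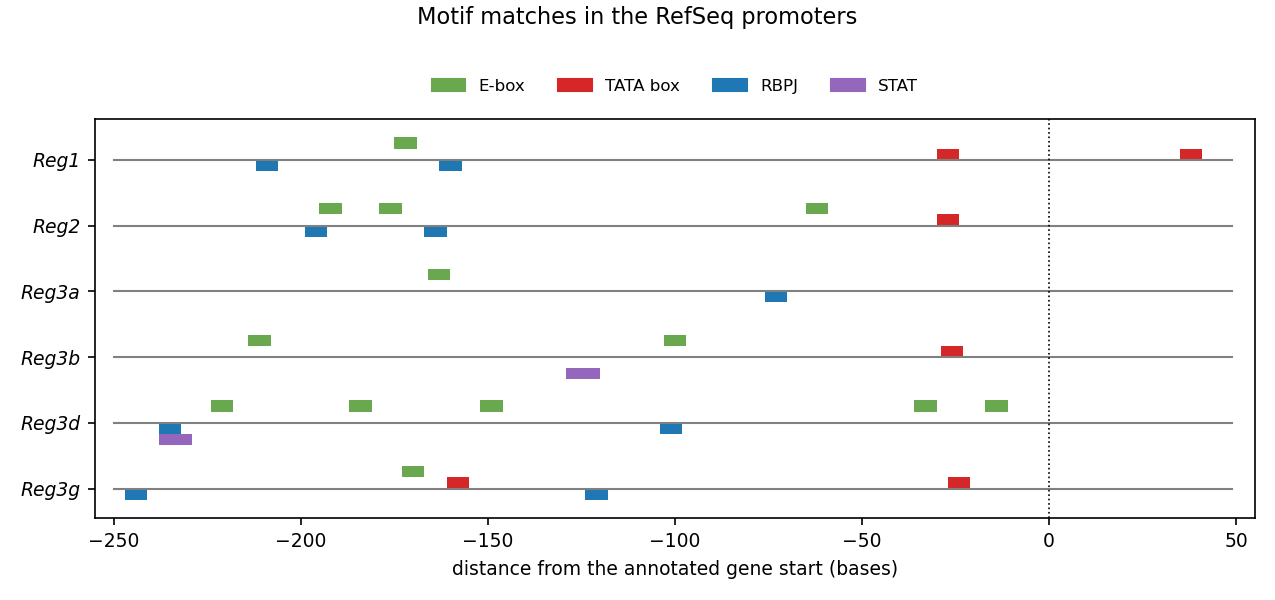
Motif matches in the start regions of the 6 Reg genes, plotted by distance from the annotated start in bases, with 1 line per gene and 1 block per match of the E-box (CANNTG), the TATA box, the RBPJ core or the STAT form on either strand. A TATAAA match sits between -30 and -27 in Reg1, Reg2, Reg3b and Reg3g, and TTCNNNGAA appears in Reg3b at -129 and in Reg3d at -238.

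Values are RMA log2 intensities, in which 1 unit is a doubling of array signal. Array medians over all features lay between 4.94 and 5.05. Correlations between arrays of a group, across genes that are not independent replicates, were 0.979 to 0.992 in wild type and 0.992 to 0.995 in knockout. Wild type replicate 2 stood apart on the second principal component, at -35.7, while the 3 remaining wild type arrays lay from 4.68 to 24.6. Sel1l read 12.37 to 12.39 in wild type and 11.45 to 11.70 in knockout, a difference of -0.76 ± 0.0788 (SE, limma adjusted p = 0.000196), so it was lower in every knockout array. Which exons its probes cover, and so how far they check the deletion of exon 6, is not known from the sources used here. At a Benjamini-Hochberg adjusted p under 0.05 in limma, 5406 of 18820 genes (28.7%) were called, 2379 lower (12.6%) and 3027 higher (16.1%) in knockout. The higher genes made up 56.0% of calls, but 42.9% after quantile normalization and 36.3% after centring each array on its median. Direction went with level on the deposited scale. Among the 9410 genes above the median level, fitted alone, the median difference was 0.13, with 1163 lower and 3013 higher. Calls among dimmer genes were thus mostly lower. Every member difference kept its negative sign under quantile normalization, median centring and cyclic loess.

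Reg1 and Reg3d fell in the knockout, Reg1 by 1.41-fold and Reg3d by 1.92-fold, and no member was called higher. Reg2, Reg3a, Reg3b and Reg3g had lower knockout means, but their arrays differed widely within groups and the differences did not pass the test. For Reg3g the difference was also small, at -0.20, and it was 0.36 without wild type replicate 3. The 4 genes varied over arrays by up to 69.7-fold within 1 group, and largely in parallel. One array, wild type replicate 2, decided the calls of Reg3a and Reg3b: without it both were called lower. Thus 2 of 6 members were called lower with all arrays, against 12.6% of all genes, and 4 of 6 without wild type replicate 2, against 10.8% of all genes. After quantile normalization 1 of 6 members, Reg3d, was called lower, against 12.8% of all genes. All 6 differences were below 0, as were those of 54.4% of all genes, and the median difference was -1.09 over the members and -0.04 over all genes. All 6 members lay above the median level, where the median difference was 0.13 and 72.2% of calls were higher. Fitted with only those 9410 genes, 2 of 6 members were called lower, as were 1163 genes. The tissue was sampled in bulk, so fewer cells of a type and less RNA per cell cannot be told apart.

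**Figure D2:**
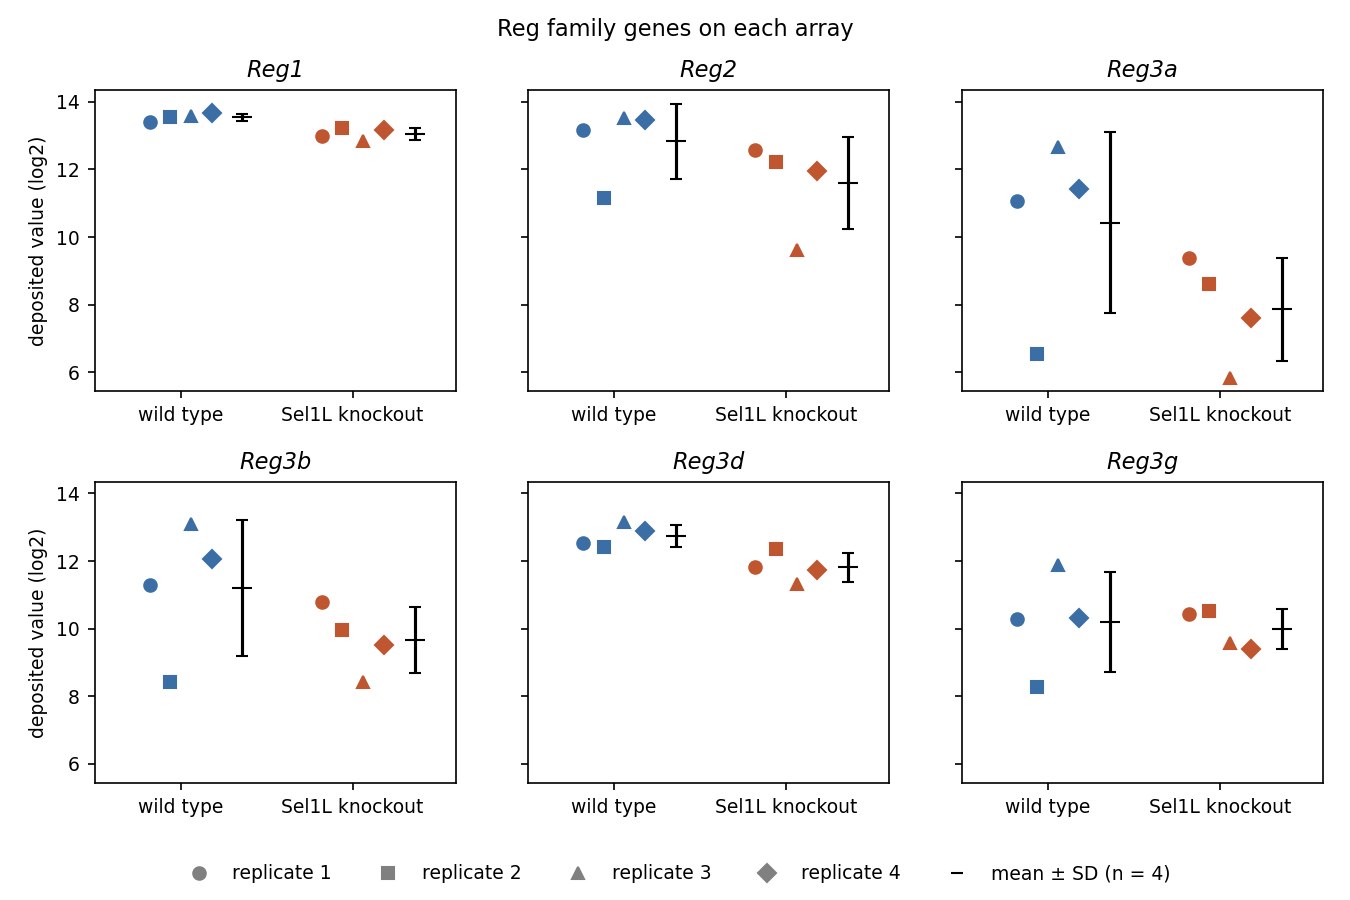
RMA log2 values (y axis) of the 6 Reg genes in 4 wild type and 4 Sel1L knockout arrays, with 1 marker per array, its shape giving the replicate number, and bars for the group mean and SD. The groups separate for Reg1 and Reg3d and overlap for Reg2, Reg3a, Reg3b and Reg3g, and wild type replicate 2 is the lowest wild type array in 5 panels, at 6.53 for Reg3a.

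Reg1, the pancreatic stone protein gene, read 13.40, 13.56, 13.57 and 13.66 in wild type replicates 1 to 4. In knockout replicates 1 to 4 it read 13.00, 13.21, 12.83 and 13.15. All 4 knockout values were below all 4 wild type values, which held for 14.6% of all genes. The means were 13.55 ± 0.107 (SD, n = 4) and 13.05 ± 0.173 (SD, n = 4), and the difference of -0.50 ± 0.103 (SE) had a 95% interval of -0.73 to -0.27 and a limma adjusted p of 0.00699. An exact two-sided permutation test gave p = 0.0286, the smallest that 4 against 4 arrays allow. The call was lost after quantile normalization, where the difference was -0.34 and the limma adjusted p 0.0600. These values lay near the top of the arrays, whose highest readings were 14.3 to 14.4, and whether signal there still followed the amount of RNA was not tested.

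Reg2, the second gene of the stone protein type in mouse, read 13.16, 11.17, 13.51 and 13.47 in wild type replicates 1 to 4. Its knockout values were 12.59, 12.22, 9.61 and 11.97. Wild type replicate 2 lay below 3 of the 4 knockout arrays, and knockout replicate 3 lay below every other array, so the groups overlapped. Reg2 averaged 12.83 ± 1.12 (SD, n = 4) in wild type and 11.59 ± 1.35 (SD, n = 4) in knockout. The difference of -1.23 ± 0.694 (SE) had an interval of -2.79 to 0.32 and did not pass the test (limma adjusted p = 0.203). Without wild type replicate 2 it was -1.79 (adjusted p = 0.0555), and without knockout replicate 3 it was -0.57 (adjusted p = 0.453).

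Reg3a, a member of the pancreatitis-associated group, read 11.07, 6.53, 12.66 and 11.42 in wild type replicates 1 to 4. The knockout arrays read 9.37, 8.62, 5.84 and 7.61. Each of the wild type arrays other than replicate 2 exceeded all knockout arrays, while replicate 2 was lower than 3 of them. Group means were 10.42 ± 2.68 and 7.86 ± 1.53 (SD, n = 4 each), and the difference of -2.56 ± 1.22 (SE, interval -5.29 to 0.17) did not pass the test (limma adjusted p = 0.139). Without wild type replicate 2 the difference was -3.85 ± 0.733 (SE, interval -5.51 to -2.20), or 14.5-fold, and was called (limma adjusted p = 0.00607). With any 1 of the other arrays left out, the difference was not called (adjusted p up to 0.304).

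Reg3b, which encodes the protein first described as pancreatitis-associated protein, read 11.29, 8.41, 13.10 and 12.06 in wild type replicates 1 to 4. In the knockout it read 10.79, 9.95, 8.41 and 9.51. As with Reg3a, the wild type arrays other than replicate 2 were above every knockout array, and replicate 2 was level with the lowest of them. The means were 11.22 ± 2.01 and 9.67 ± 0.988 (SD, n = 4 each), with a difference of -1.55 ± 0.886 (SE, interval -3.53 to 0.44) that did not pass the test (limma adjusted p = 0.210). Without wild type replicate 2 the difference was -2.48 ± 0.544 (SE, interval -3.71 to -1.26), or 5.59-fold, and was called (limma adjusted p = 0.0115).

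Reg3d read 12.52, 12.43, 13.14 and 12.90 in wild type replicates 1 to 4. Its knockout values were 11.83, 12.35, 11.32 and 11.75. The groups did not overlap, although knockout replicate 2 came within 0.1 of the lowest wild type array. The means of 12.75 ± 0.332 and 11.81 ± 0.423 (SD, n = 4 each) differed by -0.94 ± 0.222 (SE, interval -1.43 to -0.44), with a limma adjusted p of 0.0125 and an exact permutation p of 0.0286. Reg3d was called lower under each of the 17 alternative settings tried, including all 8 that left out 1 array, where the differences ran from -1.12 to -0.77.

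Reg3g, the bactericidal lectin of gut epithelium, read 10.29, 8.28, 11.88 and 10.31 in wild type replicates 1 to 4. Its knockout values were 10.44, 10.54, 9.57 and 9.41. The knockout arrays lay inside the wild type range, between wild type replicates 2 and 3. The means were 10.19 ± 1.47 and 9.99 ± 0.584 (SD, n = 4 each), and the difference of -0.20 ± 0.629 (SE) had an interval of -1.61 to 1.21 (limma adjusted p = 0.824). Its sign rested on 1 array: the difference was 0.36 without wild type replicate 3. Without wild type replicate 2 it was -0.84, and neither was called.

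**Figure D3:**
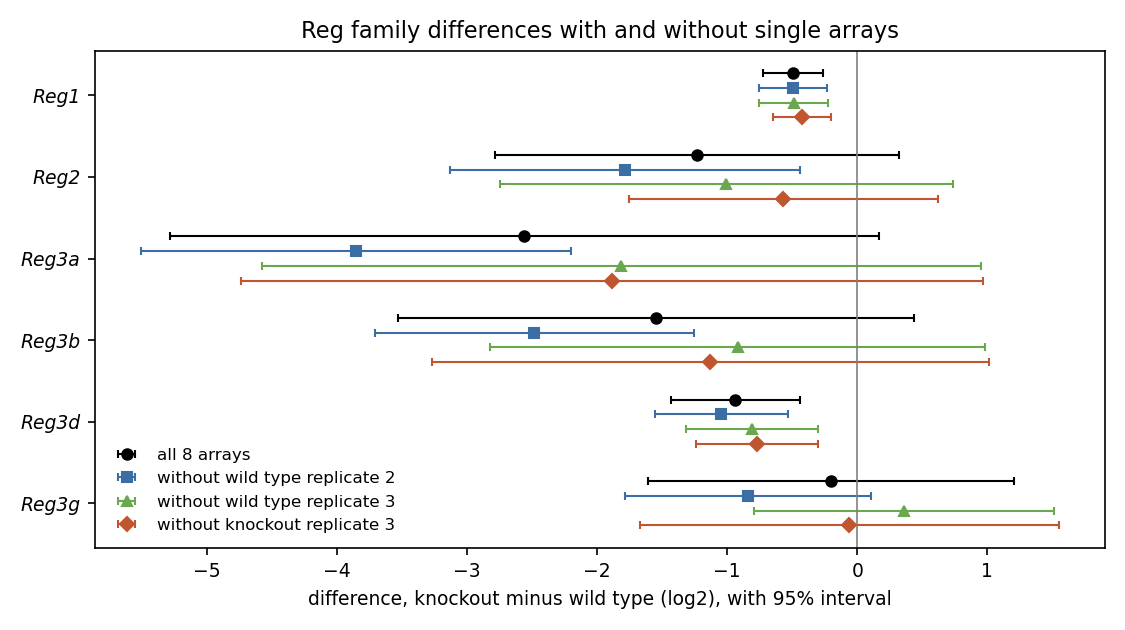
Difference of each Reg gene, knockout minus wild type on the log2 scale (x axis), with its 95% interval from limma. Markers show all 8 arrays and the fits without wild type replicate 2, wild type replicate 3 or knockout replicate 3. With all arrays the intervals of Reg1 and Reg3d exclude 0. Without wild type replicate 2 Reg3a moves from -2.56 to -3.85 and Reg3b from -1.55 to -2.48. Without wild type replicate 3 they move to -1.81 and -0.92, and without knockout replicate 3 Reg2 moves from -1.23 to -0.57.

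The spread inside the groups was itself a feature of these genes. In wild type, the range from the lowest to the highest array was 6.12 on the log2 scale for Reg3a (69.7-fold), 4.69 for Reg3b (25.8-fold), 3.60 for Reg3g (12.1-fold) and 2.34 for Reg2 (5.06-fold). Reg3d and Reg1 spanned only 0.71 (1.64-fold) and 0.26 (1.20-fold) there. Among the knockout arrays the ranges were 3.53 for Reg3a (11.5-fold), 2.98 for Reg2 (7.89-fold), 2.37 for Reg3b (5.18-fold), 1.13 for Reg3g (2.19-fold), 1.03 for Reg3d (2.04-fold) and 0.39 for Reg1 (1.31-fold). Reg3a, Reg3b and Reg3g had the larger SD in wild type, and Reg1, Reg2 and Reg3d in knockout. Across all genes the wild type SD was the larger in 68.3%.

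Ranked by pooled within-group SD among the 18820 genes, Reg3a stood at position 3 from the largest with 2.18, Reg3b at 11 with 1.58, Reg2 at 28 with 1.24 and Reg3g at 43 with 1.12. Reg3d stood at 912 with 0.380. These 5 members were among the 5% of genes with the largest spread. Reg1, by contrast, stood at 10727 with 0.144, slightly under the median gene's 0.157. The standard error of the genotype difference was accordingly 0.103 for Reg1 and 1.22 for Reg3a. Reg1 read near the top of the arrays, and whether that narrowed its spread was not tested.

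**Figure D4:**
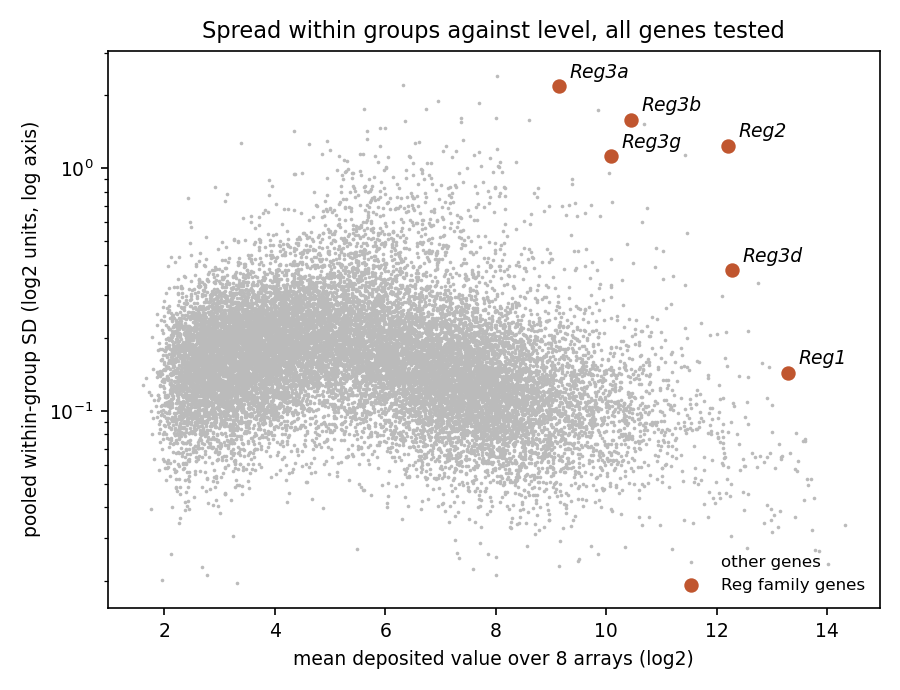
Pooled within-group SD of log2 values (y axis, logarithmic) against the mean level over 8 arrays (x axis) for all 18820 genes, with the 6 Reg genes labelled. Reg3a, Reg3b, Reg2 and Reg3g lie at the upper edge of the cloud with SDs of 1.12 to 2.18, Reg3d is lower at 0.380, and Reg1 at 0.144 is near the median gene's 0.157.

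The arrays ranked alike for most members. In wild type, replicate 2 was lowest, then 1, then 4, and replicate 3 highest for Reg2, Reg3a, Reg3b, Reg3d and Reg3g, an order that 5.26% of all genes had. Reg1 ran differently, with replicate 1 lowest and replicate 4 highest. In knockout, Reg2, Reg3a and Reg3b shared the order 3, 4, 2, 1 from low to high, which 4.62% of all genes had. Knockout replicate 3 was the lowest of its group for 5 members, and replicate 4 for Reg3g.

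Covariation was measured over the 8 arrays on deviations from the group means, so that the genotype difference did not enter, and tested by exact permutation within groups (576 arrangements, two-sided, smallest possible p 0.00174). The 15 pairs were adjusted together by Benjamini-Hochberg. The deviations of all members in an array share that array's RNA sample and normalization. Whether probes of 1 member also bound another's transcript was not tested. All 15 pairs had a positive Pearson r, with a median of 0.718, and 9 had a raw p and 5 an adjusted p under 0.05. By Spearman's rho all 15 were positive as well, and 3 had an adjusted p under 0.05.

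Reg3a and Reg3b ran together most closely, with r = 0.988 and rho = 1 (exact permutation p = 0.00174 for each, adjusted p = 0.00868 for r and 0.0174 for rho). Their r was 0.988 without the 2 arrays farthest from the Reg3a median and 0.961 without wild type replicate 2. Reg2 followed both: r was 0.908 with Reg3a and 0.868 with Reg3b, rho 0.929 for each (exact permutation p = 0.00174 for r and 0.00347 for rho, adjusted p = 0.00868 and 0.0174). Leaving out the 2 farthest arrays gave 0.873 and 0.864, and leaving out wild type replicate 2 alone gave 0.899 and 0.799. Reg2, Reg3a and Reg3b were the 3 members whose pairs passed by both measures.

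Reg3g followed Reg3b with r = 0.932 and Reg3a with r = 0.919 (rho = 0.905 for each; exact permutation p = 0.0122 for r and 0.0208 for rho). Adjusted over the 15 pairs, these were 0.0365 for r and 0.0608 for rho, so by rank neither passed. The 2 farthest arrays differed between these pairs. With Reg3b, r was 0.711 without wild type replicates 2 and 3. With Reg3a, r was 0.964 without knockout replicate 3 and wild type replicate 3, which keeps wild type replicate 2. Without wild type replicate 2 alone r was 0.796 with Reg3b and 0.757 with Reg3a. Reg3d had r between 0.705 and 0.755 in its 5 pairs, and none of these passed after adjustment.

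Reg1 had the 4 lowest r of all pairs with all 8 arrays. Its values lay near the top of the arrays, and whether that lowered its r was not tested. Its r was 0.521 with Reg2, 0.266 with Reg3a, 0.256 with Reg3b and 0.121 with Reg3g, with adjusted exact permutation p of 0.299 to 0.736. With Reg3d it reached 0.754 (adjusted exact permutation p = 0.0994). Without knockout replicate 3 and wild type replicate 4, the arrays farthest from the Reg1 median, r with Reg2, Reg3a, Reg3b and Reg3g was -0.34, -0.26, -0.21 and -0.05, so their positive sign rested on those arrays, while with Reg3d it was 0.533. Without wild type replicate 2 the values were higher than with all arrays, at 0.705 with Reg2, 0.552 with Reg3a, 0.525 with Reg3b, 0.257 with Reg3g and 0.838 with Reg3d. Over all arrays the 10 pairs without Reg1 had r of at least 0.701, but some of these also rested on few arrays. Reg2 with Reg3g was 0.420 without wild type replicate 2. Without the 2 farthest arrays Reg2 with Reg3d was 0.354 and Reg3a with Reg3d 0.455.

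**Figure D5:**
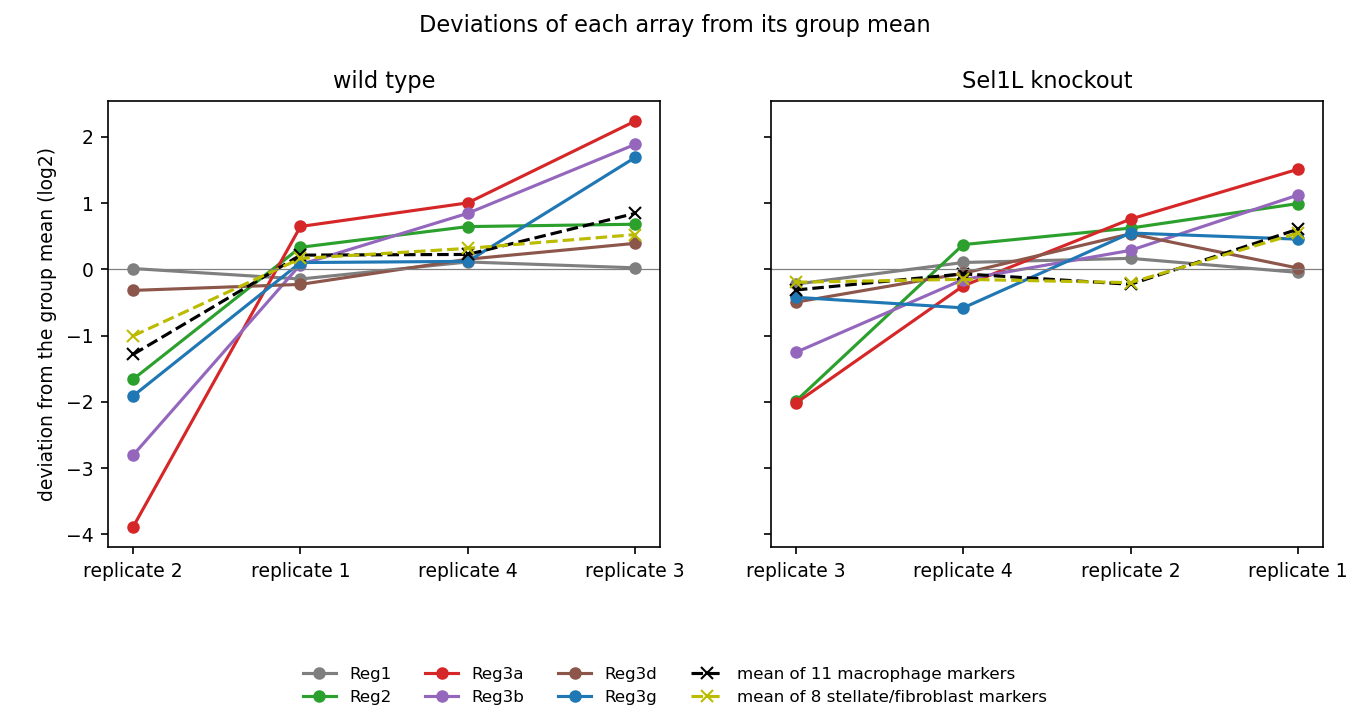
Deviation of each array from its group mean on the log2 scale (y axis) for the 6 Reg genes and for the means of 11 macrophage and 8 stellate cell or fibroblast markers. Replicates on the x axis are placed in the array order that 5 Reg genes shared in wild type and 3 in knockout, and lines only join points of 1 gene or list. In wild type, 5 Reg genes and both marker means are low in replicate 2 and high in replicate 3, while Reg1 stays close to 0 throughout.

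Marker lists of other cell types varied over the arrays too, some in the wild type order of 5 Reg genes and some against it. The mean of 11 macrophage markers, all measured, was 7.61, 6.11, 8.24 and 7.62 in wild type replicates 1 to 4, the order of the 5 Reg genes, and 8.17, 7.34, 7.25 and 7.49 in knockout. Of these markers 4 lay below the array's median gene in wild type replicate 2 and 1 or 2 in each other array, and 0 of 11 were called in either direction (0 higher and 2 lower without that array). The mean of 8 stellate cell or fibroblast markers was 8.02, 6.86, 8.38 and 8.18 in wild type and 8.46, 7.71, 7.72 and 7.76 in knockout, with 0 of 8 called (1 lower without wild type replicate 2). In knockout both means were highest in replicate 1, as Reg2, Reg3a and Reg3b were, but neither had their full order of 3, 4, 2, 1. For both lists the knockout range lay inside the wild type range or within 0.1 of it, so the groups overlapped. Neutrophil markers (4 measured) were also lowest in wild type replicate 2 and knockout replicate 3, at 3.60 and 3.40, and highest in wild type replicate 3, at 4.68.

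Islet markers ran the opposite way. The mean of 5 measured beta cell markers was 6.90, 7.41, 6.50 and 6.73 in wild type replicates 1 to 4 and 6.44, 7.31, 7.59 and 6.98 in knockout. That of 3 measured alpha, delta and PP cell markers was 9.15, 9.83, 8.31 and 9.57 in wild type and 8.65, 9.84, 10.10 and 9.49 in knockout. Both were highest in wild type replicate 2 and knockout replicate 3, where most Reg genes were lowest, and lowest in wild type replicate 3 and knockout replicate 1. None of the beta cell markers was called, and 1 of the 3 others was called higher. That call was lost after quantile normalization, median centring and cyclic loess. The part of these cell types in the Reg results was not tested.

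Gut epithelium, which also expresses Reg3b and Reg3g and lies beside the pancreas at dissection, was checked through 11 markers. Their mean was 3.94 to 4.10 in wild type and 3.83 to 4.01 in knockout, and 9 or 10 of the 11 lay below the median gene in every array. Of the 11, 5 were called lower and 1 higher in knockout, with a median difference of -0.25. Calls among dim genes were mostly lower in these data, so this direction was not particular to gut markers. After quantile normalization or cyclic loess 2 of the 11 were lower and 1 higher, and after median centring 6 and 1. Their part in the Reg results was not tested. The label of the tissue was borne out by 3 measured acinar markers with means of 13.84 to 13.91 in wild type and 13.56 to 13.61 in knockout.

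The pathway upstream of the Reg3 genes was read through lists of its ligands, receptors and targets. The ligand list held 8 genes, of which Il22 was not measured, so no ligand of the IL22 receptor was read. The 7 measured were ligands of gp130 and Il10, which acts through another receptor. Of these, Clcf1 rose by 0.68 (limma adjusted p = 0.0172). Il11 fell by 0.51 (adjusted p = 0.0348, but 0.0579 without wild type replicate 2 and 0.0593 after cyclic loess). Il6 itself was dim, at 2.74 ± 0.274 in wild type and 2.40 ± 0.0909 in knockout (SD, n = 4 each; adjusted p = 0.0791). The list's median difference was -0.15, against -0.04 over all genes. In every array 5 or 6 of the 7 lay below the median gene, among dim genes whose calls were mostly lower. After cyclic loess 2 of the 7 were higher and 0 lower.

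Of 10 measured receptors, kinases and STAT3, Il6ra, the receptor subunit that binds IL6, was the only one called, and fell by 0.60 (limma adjusted p = 0.00679). Stat3 averaged 9.23 ± 0.427 in wild type and 8.90 ± 0.151 in knockout (SD, n = 4 each), a difference of -0.32 that did not pass the test (adjusted p = 0.224). Without wild type replicate 2 it was -0.50 and was called lower (adjusted p = 0.0356). The list's median difference was 0.07, but -0.0044 after median centring, -0.04 after quantile normalization, -0.05 after cyclic loess and -0.02 without wild type replicate 2.

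Of 13 STAT3 targets, 2 were lower and 0 higher, with a median difference of -0.25. Socs3, the feedback inhibitor of this pathway, read 6.09, 5.99, 6.96 and 6.36 in wild type replicates 1 to 4 and 5.82, 5.72, 5.41 and 5.47 in knockout. All its knockout values were below all its wild type values, and replicate 3 was again the highest wild type array. It fell by 0.75 ± 0.200 (SE, limma adjusted p = 0.0210), and the kinase gene Pim1 fell by 0.34 (adjusted p = 0.0465). Without wild type replicate 2, 5 of the 13 were lower and 0 higher, with a median of -0.40. Lcn2, which encodes an iron-scavenging acute-phase protein, had a knockout mean 1.15 above wild type that did not pass (adjusted p = 0.107).

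Saa3, an acute-phase target named after its values were seen, had the array profile of Reg3a. It read 8.78, 3.90, 10.72 and 10.17 in wild type replicates 1 to 4 and 9.35, 7.79, 6.00 and 7.41 in knockout. Wild type replicate 2 was the lowest array of all, as knockout replicate 3 was of its group. With all arrays the Saa3 difference was -0.76 (limma adjusted p = 0.689), and without wild type replicate 2 it was -2.25 and called lower (adjusted p = 0.0439).

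Both relatives of the family were called lower in knockout, 1 of them not after cyclic loess. Reg4, a Reg gene outside the chromosome 6 cluster in the mouse and known from gut, was dim, at 2.96 ± 0.0457 in wild type and 2.63 ± 0.0378 in knockout (SD, n = 4 each), and fell by 0.32 (limma adjusted p = 0.00763). After cyclic loess its difference was -0.18 and was not called (adjusted p = 0.0830). Calls among dim genes were mostly lower, so the direction of Reg4 was not particular to a Reg relative. Extl3, a glycosyltransferase also described as a Reg receptor, went from 10.55 ± 0.0650 to 10.20 ± 0.105 and fell by 0.34 (adjusted p = 0.0122).

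Other genes of a stressed exocrine pancreas did not move in 1 direction. Of 19 measured acinar injury genes, 5 were higher and 2 lower, with a median difference of 0.12. That median was -0.03 after quantile normalization, -0.01 after cyclic loess and -0.19 without wild type replicate 2, with 3 higher and 2 lower under each of these. Krt18, a keratin of simple epithelia, rose by 0.86 (limma adjusted p = 9.66e-05), and Nupr1, a stress-induced chromatin protein gene, rose by 0.50. Clu, the chaperone clusterin, fell by 0.78, and Hbegf, a ligand of the EGF receptor, fell by 0.64. Of 13 antimicrobial genes of epithelia, 3 were lower and 0 higher, namely Ang4, Camp and Retnlb. All 3 had wild type means below 5, among dim genes whose calls were mostly lower. Retnlb was not called after cyclic loess (adjusted p = 0.0600). The Reg genes are acinar cargo as well: of 25 other measured genes for secreted acinar proteins 15 were lower and 1, Amy1, was higher, with a median of -0.30, and after quantile normalization 7 were lower and 2 higher, with a median of -0.08. Dmbt1, a scavenger receptor protein of mucosal secretions, fell by 0.97, and Cuzd1, a zymogen granule protein gene, fell by 1.02. Of 7 measured acinar transcription factors, Bhlha15 (Mist1), Xbp1 and Gata4 fell by 0.76, 0.50 and 0.38, and Prox1 rose by 1.00.

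Genes whose deviations most resembled each member's were named by Pearson r over the 8 arrays, as a description, from 9404 genes with means above the median gene. Reg3a was most like Nfkbia (0.986), Id2 (0.982) and Plekhb2 (0.982). Reg3b was most like Stom (0.996), Fam53b (0.992) and Mrc2 (0.991). For Reg3g these were Parvb (0.996), Rarg (0.989) and Plbd1 (0.986). Nfkbia encodes the inhibitor that holds NF-kB in the cytoplasm, and Mrc2 a collagen-binding receptor of fibroblasts. Wild type replicate 2 was below its group mean in each of these 9 genes, by 0.24 for Plekhb2 to 0.76 for Plbd1. Without it every r was at least 0.939. The genes were picked for high r over these same arrays, so that value is no separate check, and no chance level was computed.

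Reg2 was most like Adh5 (0.986), Zfp959 (0.954) and Upk3b (0.948), and Reg3d most like Pou6f1 (0.977), Habp2 (0.975) and Pola2 (0.957). For Reg1 the nearest were Cbx2 (0.985), Mapk13 (0.965) and Utp14a (0.960). Some genes most like a member within groups differed from it in the direction of the genotype difference. Cbx2, a Polycomb protein gene, rose by 0.52 (limma adjusted p = 0.00314) while Reg1 fell, and Pou6f1 rose by 0.51 (adjusted p = 0.00188) while Reg3d fell. Mapk13, a p38 kinase gene, and Habp2, which encodes a secreted protease, fell by 0.67 (adjusted p = 0.0148) and 0.73 (adjusted p = 0.00494), the direction of Reg1 and Reg3d. Id2, a neighbour of Reg3a, rose by 0.48 (adjusted p = 0.0359), against the lower knockout mean of Reg3a, but was not called after any of the 3 other normalizations (adjusted p = 0.0569 to 0.112). The 3 genes most like Reg2 had differences of 0.12, 0.20 and 0.38, against -1.23 for Reg2. None of these 3 passed the test, nor did the other 10 genes named by likeness.

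Members of this family are similar in sequence, and which probes of 1 member also bind another's transcript was not tested. Levels of different members were therefore not ranked against each other. How far such binding enters the correlations and shared array orders of the members was not tested either.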

How the data were processed

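RNA of 8 mouse pancreas samples (4 wild type, 4 Sel1L knockout) was measured on whole-transcript arrays, from 100 ng of RNA each per the labels' protocols. The deposited log2 values were made by the authors with RMA, a method of background correction, quantile normalization and probe summary, per the submitters' processing notes. No header states the log base, which was taken from RMA and from the range of 0.965 to 14.4. The RMA version, the arrays normalized together and the genome build: not given in the sources used here. Of 35556 features, 21218 had 1 gene symbol in the platform annotation, 1881 had several and 12457 had none. The last 2 kinds were left out. The highest-mean feature of a gene was kept, which gave 18820 genes, with no filter on dim ones. Of the features with 1 symbol, 21185 matched the GRCm38.p6 RefSeq table by Entrez identifier, and 0 symbols changed.

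Genotype was fitted to all genes with limma 3.58.1 (lmFit, eBayes, default settings) in R 4.3.3. Adjusted p-values are Benjamini-Hochberg over 18820 genes. Errors are moderated standard errors. Exact permutation tests of group means used scipy 1.17.1. Correlations and their permutation tests were computed in Python 3.11.15, with ranks from scipy, and figures used matplotlib 3.10.9. The scripts were tested on simulated data. The number of arrays limits precision. Genes outside the family were named by rule: up to 4 with the smallest p of each list, all of a list with 4 or fewer, and the 3 most like each member. Saa3 was named after its values were seen. The members and lists were chosen with earlier results of these data known. The labels do not say that samples with the same replicate number are pairs, and they were not treated as pairs in the main fit. Alternatives were 3 other normalizations, a filter on dim genes, other rules for features, trend and robust variance, array weights, a replicate block and leaving out each array. Promoter sequences are RefSeq's, and their start sites are annotated, not measured here.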

Additional observations from a re-analysis of the deposited data

Results flagged for a closer look

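In 7 of 110 groups of 4 arrays, over 55 genes named or listed here, 1 array lay far outside the range of the other 3. Chance alone gives about 1 such group in 20. Reg2 in wild type replicate 2 read 11.17 against 13.16 to 13.51 on the 3 remaining arrays of its group. Sel1l in knockout replicate 4 read 11.45 against 11.66 to 11.70. Il6ra in wild type replicate 2 read 8.71 against 8.30 to 8.37. Ang4 in wild type replicate 1 read 5.13 against 4.89 to 4.93. Among the genes most like a member over arrays, Upk3b in wild type replicate 2 read 5.51 against 6.33 to 6.44. In knockout replicate 3, Id2 read 8.94 against 9.22 to 9.27, and Zfp959 read 5.96 against 6.20 to 6.22. Neither Reg3a nor Reg3b had such an array in either group.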

How the results depend on the processing

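The count of 2 members lower in knockout became 1 after quantile normalization, where Reg1 was -0.34, and 4 without wild type replicate 2, where Reg3a was -3.85 and Reg3b -2.48; it was 2 under the other 15 settings. Leaving out 1 array at a time gave 2 to 4 members lower, 0 higher and 3721 to 5227 genes called. Over the same settings the differences ran from -0.55 to -0.42 for Reg1, -1.79 to -0.57 for Reg2, -3.85 to -1.81 for Reg3a, -2.48 to -0.92 for Reg3b, -1.12 to -0.77 for Reg3d, -0.84 to 0.36 for Reg3g and -0.78 to -0.70 for Sel1l. The positive Reg3g value, 0.36, came without wild type replicate 3. The limma count of members higher was 0 throughout, and 0 at an unadjusted p under 0.05. With a replicate block, Reg1 was -0.50 (limma adjusted p = 0.0147), Reg3d had an adjusted p of 0.0394 and 4678 genes were called. Deviations of same-numbered samples correlated at 0.222, 0.153, -0.27 and -0.02, which cannot exclude that such samples shared a litter or a batch. The labels do not pair them, so the numbers were not taken as pairs. All 15 correlations between members were positive by Spearman's rho, after quantile normalization and without wild type replicate 2, and 11 without the 2 farthest arrays. The cause of these changes was not tested. Array signal near its upper end limits Reg1 and the highest wild type values of Reg2, Reg3b and Reg3d. Signal near background limits dim genes such as Reg4.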
